A study of Rattus with 8 samples.

Results

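The miR-130 and miR-301 family was measured in the hippocampus of rats 24 h after deep hypothermic circulatory arrest (DHCA) on cardiopulmonary bypass (CPB). Every mature miRNA listed under the name miR-130a, miR-130b, miR-301a or miR-301b was taken, with either arm, which gave 5 of the 615 mature miRNAs of the deposited table. These were rno-miR-130a-3p, rno-miR-130a-5p, rno-miR-130b-5p, rno-miR-301a-3p and rno-miR-301a-5p, where rno stands for rat and is left out hereafter. rno-miR-130b-3p and rno-miR-301b were not analysed here. The members were chosen by their names and not by their levels, with earlier results of these data known.

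There were 4 small RNA libraries of the CPB/DHCA group and 4 of a control group with a sham operation. All came from male Sprague-Dawley rats of 9 weeks that were anaesthetized with sevoflurane and received acetaminophen after surgery. The CPB/DHCA group had 5 min of normothermic bypass, 30 min of cooling to a target of 18 °C, 30 min of circulatory arrest and 60 min of rewarming, and only rats that survived to 24 h could be sampled. The control group was intubated and cannulated without bypass or arrest. The labels do not say that each library is a separate rat, so p values measure the spread between these libraries. The whole hippocampus was sequenced, so fewer cells of a type and less miRNA per cell cannot be told apart.

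A miRNA is cut from a hairpin precursor whose 5p and 3p strands are its arms, and bases 2 to 8 of the arm that is loaded into the silencing complex, its seed, pair with the targeted mRNA. The 3p arms of the miR-130 and miR-301 family share a seed and are the arms usually studied. In human endothelial cells miR-130a represses the antiangiogenic homeobox genes MEOX2 (GAX) and HOXA5, and the family represses PPARG, a nuclear receptor of adipocytes and vessels. miR-301a lies in an intron of SKA2, a gene of the spindle and kinetochore, and activates NF-κB in human cancer cells by repressing NKRF.

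The mature sequences are given 5′ to 3′ as the deposited table lists them, with the seed in capitals, because the seed is what defines the family.
miR-130a-3p: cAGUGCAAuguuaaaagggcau
miR-301a-3p: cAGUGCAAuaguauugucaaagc
miR-130a-5p: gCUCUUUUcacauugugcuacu
miR-130b-5p: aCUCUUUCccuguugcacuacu
miR-301a-5p: gCUCUGACuuuauugcacuac
Both 3p arms carried the seed AGUGCAA, which no other of the 615 mature miRNAs had (0.325% of names with both included), and their first 9 bases were identical. The 5p arms had 3 different seeds, each held by 1 name only, so they do not belong to the seed family of the 3p arms. The reverse complement of the 3p seed, UUGCACU (searched on the listed strand only), was found at bases 13 to 19 of 2 of the 5p arms, shown in capitals because these are the letters that can pair with the other arm of the hairpin.
miR-130b-5p: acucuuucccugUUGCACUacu
miR-301a-5p: gcucugacuuuaUUGCACUac
It was absent from miR-130a-5p, and it was present in 5 of the 615 names (0.813%), the other 3 being miR-25-3p, miR-92a-3p and miR-92b-3p. The nearest listed sequence to any member differed from it at 7 or more positions, compared without gaps, against the 1 mismatch allowed in alignment. Family arms that the table does not list, such as miR-130b-3p and those of miR-301b, were not compared. Whether their reads were counted on a listed arm was not tested.

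The RefSeq annotation of the GRCr8 assembly, which is not the rn6 build named by the submitters and was used for neighbours only, places Mir301a within Ska2 and within the overlapping Prr11. Mir130b and Mir301b lie within 10 kb of each other, both within the gene 2610318N02Rikl, and Mir130a overlaps the precursor gene Mir3590. The table listed no arm of Mir3590, so no neighbouring miRNA outside the family could be set beside the members.

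Summed over the 615 listed miRNAs, each library held 508574 to 772840 miRNA tags. Levels are CPM (counts per 1000000 miRNA tags of the library) scaled with TMM factors (trimmed mean of M values), on which 1 tag was worth 1.20 to 2.00 CPM. The neuronal markers miR-124-3p, miR-128-3p, miR-9a-5p and miR-138-5p were present in every library, with a summed level of 232385 to 335183 CPM in the control group and 182793 to 369626 CPM in the CPB/DHCA group. Most of this sum in every library was miR-9a-5p (101858 to 156470 tags), against 2085 to 5133 tags of miR-124-3p. Some libraries stood apart. miR-200a-3p, an epithelial miRNA, had 14006 tags in CPB/DHCA 4 and 453 in control 4 against 3 to 12 in the others, and the summed oligodendrocyte markers (miR-219a-5p, miR-219a-2-3p and miR-338-3p) reached 23201 CPM in CPB/DHCA 3 against 5345 CPM in CPB/DHCA 2.

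The 5 listed arms of the family, from 3 precursors, were rare in these libraries. Together they had 311 tags over the 8 libraries, and the 3p arms that carry the seed had 136. Ranked by mean CPM among 615 miRNAs, miR-130b-5p was at 315, miR-130a-3p at 324, miR-301a-5p at 325, miR-301a-3p at 346 and miR-130a-5p at 473. All but miR-130a-5p were listed in all 8 libraries, with 3 to 17 tags in each.

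No member passed the thresholds of the study between the CPB/DHCA and control groups, which are an unadjusted p of 0.05 or less together with a 1.5-fold difference or more. All 5 members passed the filter of at least 10 counts in total and presence in at least 4 libraries, and 0 of 5 were called by edgeR's quasi-likelihood test, against a background of 7.28% of the 467 miRNAs tested, called in either direction (3.85% higher and 3.43% lower). None of the 5 had an unadjusted p under 0.05 with edgeR, with DESeq2 or with limma, and 0 of 5 passed at an adjusted p under 0.05, where 0.214% of all miRNAs tested did. The CPM of the groups overlapped in all 5 members, while no overlap was seen in 4.71% of all those tested. The log2 fold changes of 2 members lay above 0 and those of 3 below it, with a median of -0.12 beside a median of -0.05 over all miRNAs tested.

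**Figure D1:**
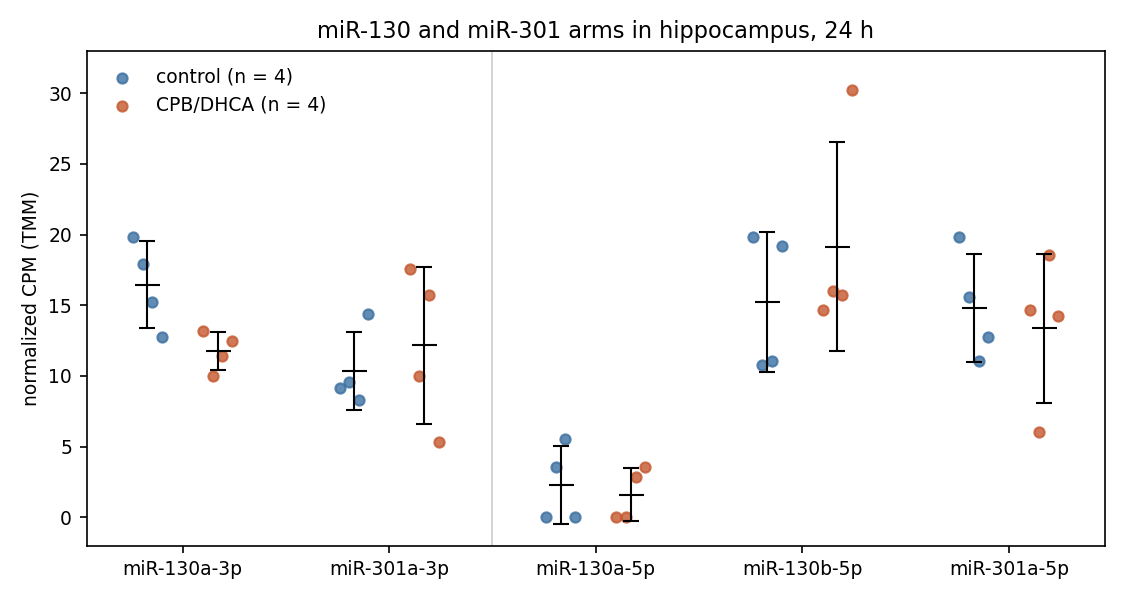
Normalized CPM of the 5 family arms, with 1 point per library, control libraries in blue and CPB/DHCA libraries in orange, and horizontal bars at the mean with error bars of 1 SD (n = 4 per group). The seed-bearing 3p arms are left of the vertical line, miR-130a-3p lies at 12.8 to 19.8 CPM in the control group and 10.0 to 13.2 CPM in the CPB/DHCA group, and the groups overlap in every arm.

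miR-130a-3p, the arm with the seed that is studied in vessels, had the smallest p of the family. Its tags numbered 13, 15, 11 and 8 in control 1 to 4, and 9, 5, 8 and 7 in CPB/DHCA 1 to 4. In CPM these were 19.8, 18.0, 15.3 and 12.8 in the control group and 13.2, 10.0, 11.4 and 12.4 in the CPB/DHCA group. Controls 1 to 3 lay above all the CPB/DHCA libraries, and control 4 lay below CPB/DHCA 1. Its mean level was 16.5 ± 3.09 CPM in controls against 11.8 ± 1.37 CPM after CPB/DHCA (SD, n = 4 per group).
The log2 fold change of miR-130a-3p was -0.47 (standard error 0.33, 95% interval -1.13 to 0.18), with an unadjusted p of 0.153 and an adjusted p of 0.756 in edgeR's quasi-likelihood test. An exact two-sided permutation test of its CPM gave p = 0.057, where 0.029 is the smallest p that 4 libraries against 4 allow. The interval runs from 0.458 to 1.13 times the control level, which includes both a fall of more than 1.5-fold and an unchanged level. Within the CPB/DHCA group the tags varied less than counting error gives (chi-square per degree of freedom 0.0906), and within the control group likewise (0.379), so that the p of edgeR was set by its lower limit for counting error.

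miR-301a-3p, the other arm with the family seed, had tags of 6, 8, 6 and 9 in control 1 to 4 and of 12, 5, 11 and 3 in CPB/DHCA 1 to 4. Its level was 10.4 ± 2.73 CPM in controls against 12.2 ± 5.57 CPM after CPB/DHCA (SD, n = 4 per group). The CPB/DHCA libraries held both the highest level (17.6 CPM in CPB/DHCA 1) and the lowest (5.33 CPM in CPB/DHCA 4), with the control libraries between them. The log2 fold change was 0.27 (standard error 0.41, 95% interval -0.65 to 1.19, adjusted p = 0.989 with edgeR). Without CPB/DHCA 1 it was 0.07, without CPB/DHCA 3 it was 0.12, without control 4 it was 0.45 and without CPB/DHCA 4 it was 0.50.

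The 2 arms with the seed therefore had log2 fold changes of opposite sign, and the ratio between them was compared per library because it does not depend on scaling. The log2 ratio of miR-130a-3p to miR-301a-3p was 1.12, 0.91, 0.87 and -0.17 in control 1 to 4 and -0.42, 0.00, -0.46 and 1.22 in CPB/DHCA 1 to 4. Its mean was 0.68 ± 0.58 in controls against 0.09 ± 0.78 after CPB/DHCA (SD, n = 4 per group). The difference of -0.59 was within the spread between libraries (exact two-sided permutation test, p = 0.371, 1 pair of members tested), so unequal change of the members was not shown. CPB/DHCA 4 had the highest ratio of all 8 libraries, and without it the difference was -0.97.
Summed over both seed-bearing arms, the level was 29.0, 27.5, 23.6 and 27.2 CPM in control 1 to 4 and 30.8, 20.03, 27.1 and 17.8 CPM in CPB/DHCA 1 to 4. The group means were 26.8 ± 2.30 CPM (SD, n = 4) and 23.9 ± 6.06 CPM (SD, n = 4). CPB/DHCA 1 lay above every control library and CPB/DHCA 2 and 4 below every one of them. Over all 5 arms the sums were 59.1 ± 7.19 CPM in controls against 58.0 ± 10.9 CPM after CPB/DHCA (SD, n = 4 per group). This difference of -1.10 CPM turned to 2.08 CPM without control 1 and to 4.23 CPM without CPB/DHCA 2. The sums cover the listed arms only, without miR-130b-3p and miR-301b.

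**Figure D2:**
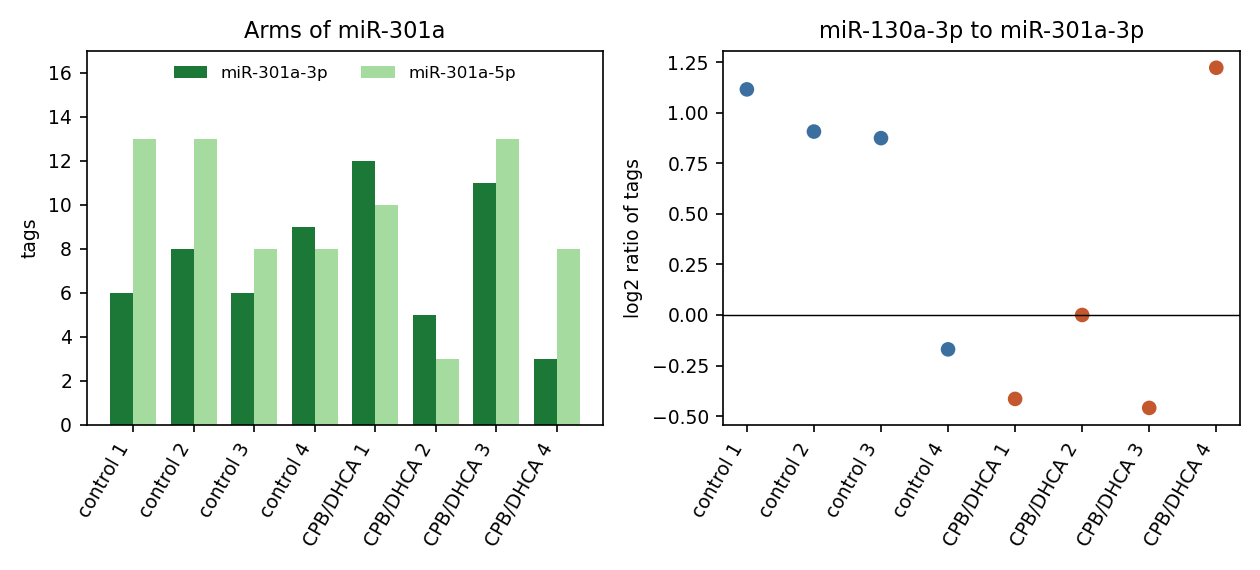
Left, tags of miR-301a-3p (dark green) and miR-301a-5p (light green) in each library, and right, the log2 ratio of miR-130a-3p to miR-301a-3p tags in each library (control blue, CPB/DHCA orange). The 5p arm of miR-301a is the higher in 5 of 8 libraries, and the ratio ranges from -0.46 in CPB/DHCA 3 to 1.22 in CPB/DHCA 4.

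The share of tags from each arm differed between the 2 precursors with both arms listed. Of the tags of miR-130a, 76 were of the 3p arm and 11 of the 5p arm, a 3p share of 87.4% (95% exact binomial interval 78.5 to 93.5%). Of the tags of miR-301a, 60 were of the 3p arm and 76 of the 5p arm, a 3p share of 44.1% (interval 35.6 to 52.9%). These intervals do not overlap, they cover counting error only, and unequal ligation of the arms was not tested. miR-130a-5p was listed in only 4 libraries, and an empty cell, read as 0, can stand for 1 tag. The 3p share of miR-130a may therefore be somewhat lower.
The 3p share of miR-130a was 87.0% in the control group (interval 75.1 to 94.6%) and 87.9% in the CPB/DHCA group (interval 71.8 to 96.6%). That of miR-301a was 40.8% (interval 29.3 to 53.2%) and 47.7% (interval 35.1 to 60.5%). For both precursors the intervals of the groups overlapped over most of their length.

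miR-301a-5p, the arm opposite the seed-bearing one, had 13, 13, 8 and 8 tags in control 1 to 4 and 10, 3, 13 and 8 in CPB/DHCA 1 to 4. It had 14.8 ± 3.82 CPM in controls against 13.4 ± 5.28 CPM after CPB/DHCA (SD, n = 4 per group). CPB/DHCA 2 alone lay below the control range of 11.1 to 19.8 CPM. The log2 fold change was -0.12 (standard error 0.37, 95% interval -0.94 to 0.71, adjusted p = 0.998 with edgeR), and it turned to 0.10 without CPB/DHCA 2 and to 0.04 without control 1.

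miR-130b-5p, the only listed arm of miR-130b, was the most abundant member by mean CPM. Its tags were 13, 9, 8 and 12 in control 1 to 4 and 10, 8, 11 and 17 in CPB/DHCA 1 to 4. Its CPM were 19.8, 10.8, 11.1 and 19.2 in the control group, and 14.6, 16.0, 15.7 and 30.2 in the CPB/DHCA group. The first 3 CPB/DHCA libraries lay inside the control range, and CPB/DHCA 4 lay above all the others.
The means were 15.2 ± 4.96 CPM in controls against 19.1 ± 7.40 CPM after CPB/DHCA (SD, n = 4 per group). The log2 fold change was 0.33 (standard error 0.36, 95% interval -0.47 to 1.14, adjusted p = 0.951 with edgeR). Without CPB/DHCA 4, the library with 14006 tags of miR-200a-3p, the log2 fold change was 0.03. The part of that library's other miRNAs in its miR-130b-5p level was not tested.

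miR-130a-5p was at the limit of detection. It had 3 tags in control 2, 4 in control 3, and 2 each in CPB/DHCA 3 and CPB/DHCA 4, and its cells were empty in the other 4 libraries, which stands for 0 or 1 tag. The level was 2.28 ± 2.76 CPM in controls against 1.60 ± 1.87 CPM after CPB/DHCA (SD, n = 4 per group) with empty cells at 0. Each group had 2 libraries with tags and 2 without. Its log2 fold change of -0.52 (standard error 1.20, 95% interval -3.20 to 2.16, adjusted p = 0.993 with edgeR) turned to 0.21 without control 3, so no direction can be read from it.

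In the order of levels, most neighbours did not differ beyond counting error. miR-130b-5p had 88 tags against 76 of miR-130a-3p, a share of 53.7% of their tags (95% exact binomial interval 45.7 to 61.5%), and was the higher in 5 of 8 libraries. miR-130a-3p and miR-301a-5p had 76 tags each. miR-130a-3p had more tags than miR-301a-3p in 4 of 8 libraries and fewer in 3, with a share of 55.9% (interval 47.1 to 64.4%). miR-130a-5p had the fewest tags in all 8 libraries, with 11 against 60 of miR-301a-3p. Over the 8 libraries, Pearson's r of log2(CPM + 1) between members ran from -0.47 (miR-130a-5p with miR-301a-3p) to 0.58 (miR-130a-3p with miR-301a-5p). The arms of 1 precursor had r = 0.13 for miR-130a and r = 0.14 for miR-301a. These values rest on a few tags per library and on shared libraries, and they are descriptions only.

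**Figure D3:**
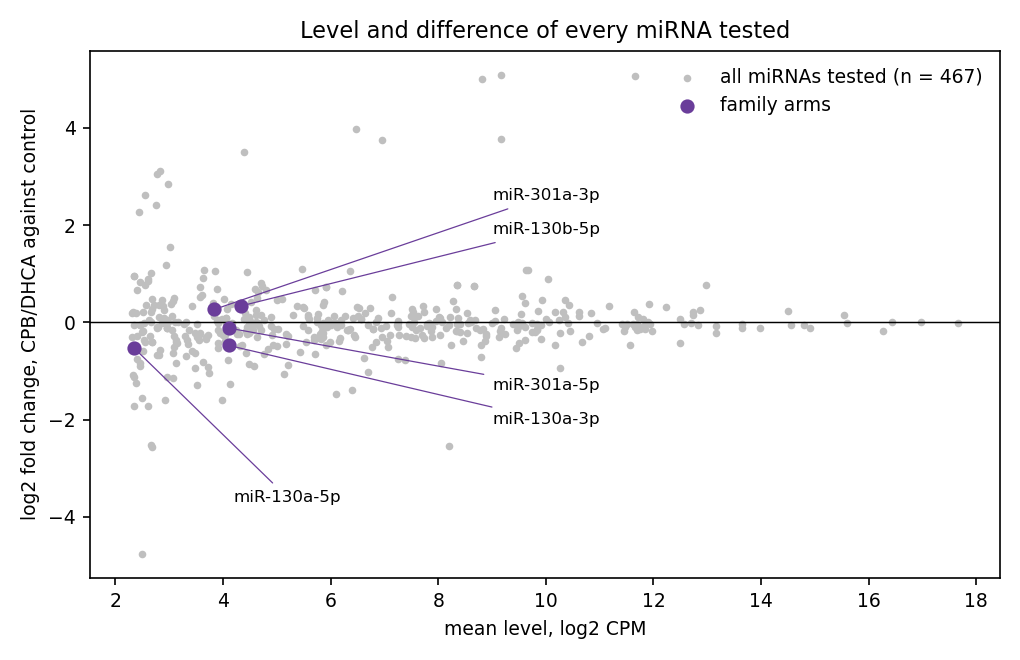
Mean level in log2 CPM (horizontal axis) and log2 fold change of CPB/DHCA against control (vertical axis) of the 467 miRNAs tested (grey) and of the 5 family arms (purple, named). The listed arms lie at the low end of the levels, with log2 fold changes from -0.52 to 0.33.

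Among the miRNAs at a similar depth (50 to 100 tags over all libraries), which include 4 of the 5 members, 6 of 48 were called (12.5%). This compares with 7.28% of all miRNAs tested. The median standard error of those at this depth was 0.42 on the log2 scale, beside 0.32 over all miRNAs tested. The median size of the log2 fold change was 0.27 among these and 0.24 over all. The standard errors of these 4 members were 0.33 to 0.41.

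The miRNAs whose levels most resembled those of a member were found by Pearson's correlation of log2(CPM + 1) over the 8 libraries, with 467 miRNAs searched and no test. For miR-130a-3p these were a predicted miRNA named for chromosome 17 (r = 0.95, 55 tags), miR-410-3p (r = 0.89) and miR-483-5p (r = 0.89, 18 tags). For miR-301a-5p they were miR-3552 and miR-539-3p (r = 0.92 each) and miR-764-3p (r = 0.89), and for miR-301a-3p miR-192-5p (r = 0.80) and predicted miRNAs named for chromosomes 11 (r = 0.80) and 16 (r = 0.77). miR-130b-5p was most like miR-490-3p (r = 0.87), a predicted miRNA named for chromosome 4 (r = 0.84) and miR-200a-3p (r = 0.79), of which the last 2 had 361 of 398 and 14006 of 14502 tags in CPB/DHCA 4. For miR-130a-5p the highest were miR-293-5p (r = 0.94, 18 tags), miR-672-5p (r = 0.83) and miR-92b-5p (r = 0.82).

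The seed of the family overlaps those of 2 other families by 6 bases at a shift of 1, and these are shown because the runs they share with it are the letters of the comparison.
miR-19a-3p: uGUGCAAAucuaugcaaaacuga
miR-148a-3p: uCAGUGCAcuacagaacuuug
miR-152-3p: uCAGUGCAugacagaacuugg
The run shared with AGUGCAA is GUGCAA in miR-19a-3p and miR-19b-3p, the growth-promoting miRNAs of the miR-17 cluster, and AGUGCA in miR-148a-3p, miR-148b-3p and miR-152-3p. Of these 5 miRNAs, 1 passed the thresholds of the study upwards and 2 downwards by edgeR, against 3.85% and 3.43% of all miRNAs tested, and 0 of 5 had an adjusted p under 0.05.
miR-19a-3p, as rare as the listed arms, had 4, 6, 5 and 6 tags in control 1 to 4 and 13, 3, 15 and 8 in CPB/DHCA 1 to 4, and its log2 fold change was 1.05 (standard error 0.41, with edgeR's adjusted p = 0.528). In CPM, CPB/DHCA 2 lay just below the control libraries and the other CPB/DHCA libraries above them. Its call was lost without control 1, 2 or 3 or without CPB/DHCA 1, 3 or 4 (log2 fold changes of 0.84 to 1.28 with any 1 library left out), whereas those of miR-148a-3p and miR-152-3p held in all 8 such fits. miR-152-3p, at 1225 CPM on average, had a log2 fold change of -0.94, miR-148a-3p one of -0.75, miR-148b-3p one of -0.04 and miR-19b-3p one of 0.31. The difference between these and the log2 fold changes of the members was not tested.

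**Figure D4:**
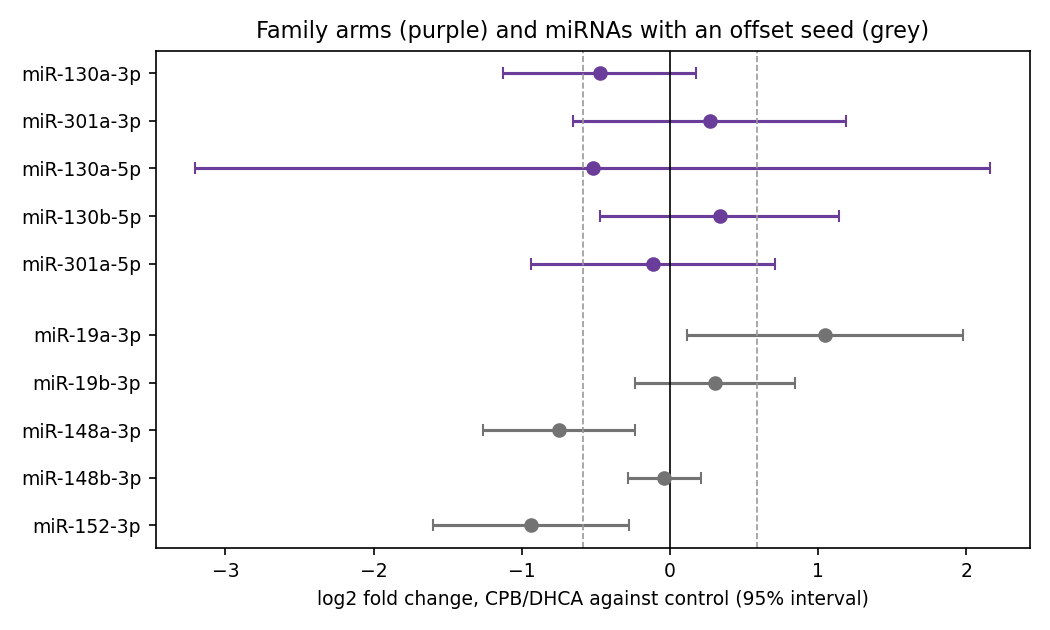
Log2 fold change of CPB/DHCA against control with its 95% interval for the 5 family arms (purple) and the 5 miRNAs with an overlapping seed (grey), with dashed lines at a fold change of 1.5 in either direction. The intervals of all 5 family arms include 0, while those of miR-19a-3p, miR-148a-3p and miR-152-3p do not.

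Calls of cell type markers stand beside 3.85% of all miRNAs tested called higher and 3.43% called lower. Of the cells that the hippocampus holds beside neurons, endothelium was followed by miR-126a-3p and miR-126a-5p. Their summed level was 2105 to 2633 CPM in the control group and 2036 to 2487 CPM in the CPB/DHCA group, with 0 of 2 called. The oligodendrocyte markers had sums of 6477 to 8095 CPM in controls and, after CPB/DHCA, of 5345 CPM in CPB/DHCA 2 to 23201 CPM in CPB/DHCA 3. Of these 3 markers miR-219a-5p was called higher (log2 fold change 1.08, edgeR's adjusted p = 0.528), while miR-219a-2-3p at 0.76 and miR-338-3p at 0.54 were not called. Leukocyte markers summed to 483 to 706 CPM and 524 to 622 CPM, with 0 of 4 called, and miR-223-3p was empty in some libraries. Of 4 erythrocyte markers 3 were called higher, namely miR-144-3p, miR-144-5p and miR-451-5p, all with empty cells. These 3 had 0 to 4 tags per control library and 0 to 30 per CPB/DHCA library. The remaining marker, miR-486, was not called and differed in the opposite direction (-0.133 in log2). Sums of all 4 were 96.9 to 136 CPM in controls and 104 to 190 CPM after CPB/DHCA. Most of their tags were miR-486 (75 to 85 per control library, 38 to 79 per CPB/DHCA library), so the sums say little about the 3 called. Markers of mural cells and fibroblasts summed to 2344 to 7239 CPM in the control group, highest in control 2, and 2323 to 3761 CPM in the CPB/DHCA group, with 1 of 3 tested called lower. Their part in the levels of miR-130a-3p and the other members was not tested.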

How the data were processed

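Small RNA of the hippocampus was sequenced in 8 libraries. The authors trimmed adapters with cutadapt 1.9.3, aligned reads with Novoalign 3.02.12 to miRBase precursors and to precursors predicted with miRDeep2, allowing up to 1 mismatch, and counted tags on mature miRNAs; the submitters' notes name rn6. The deposited raw counts fill 669 lines, which give 615 mature miRNAs, each name used once. Some names had identical fitted values, such as the predicted miRNAs named for chromosomes 12 and 14 that were called at a log2 fold change of 0.76. Shares of all miRNAs tested count such names separately. The smallest listed count is 2, so an empty cell is 0 or 1 tag and was read as 0. A second deposited table gives TPM scores that the authors rounded to whole numbers, and it was used in alternatives only. These scores are not on the scale of the CPM used here. For miR-130a-3p in control 1 the score is 5 against 19.8 CPM. The reason for this difference was not tested.

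Counts were compared with edgeR 4.0.16 (R 4.3.3) by the quasi-likelihood test on the 467 miRNAs present in 4 or more libraries and summing to 10 counts or more, with TMM factors on the listed totals and Benjamini-Hochberg adjustment over all of them. The study's test for miRNAs is not named, and its thresholds were used (fold change 1.5, unadjusted p 0.05). Where edgeR's p was set by the Poisson limit, the standard error was taken from that p. Single values were compared by exact permutation tests over the 70 assignments. Intervals of shares are exact binomial at 95%. The fit was tested on simulated counts. Within a group, pairs of libraries differed by more than counting error (chi-square per degree of freedom of at least 10.5). Analyses in Python 3.11.15 used pandas 2.3.3, numpy 2.4.6 and scipy 1.17.1.

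Named miRNAs were the members, miRNAs with the same or an overlapping seed, annotated neighbours within 10 kb, cell type markers, and for each member the 3 miRNAs most like it. The members, lists and rules were chosen with earlier results of these data known. Tests planned for miR-130b-3p were not run. Alternatives were DESeq2 1.42.0, limma 3.58.1 on log2(TPM + 1) and log2(TPM + 10), other scaling, other filters, empty cells at 1 tag, miRBase miRNAs only, the replicate block and each library left out. Summing the arms of a precursor was added after seeing the data.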

Additional observations from a re-analysis of the deposited data

Results flagged for a closer look

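The level of miR-130b-5p in the CPB/DHCA group was marked because 1 library stood far from the others. CPB/DHCA 4 had 30.2 CPM against 14.6, 16.0 and 15.7 CPM, a gap of 0.912 of the range of the group (above Dixon's 95% critical value for 4 samples). It rests on 17 tags against 8 to 11. Chance marks about 1 in 20 groups, and 16 groups of values were examined.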

How the results depend on the processing

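No alternative brought a member past the thresholds of the study. Over its 18 alternatives miR-130a-3p stayed below 0 (-0.57 to -0.13, unadjusted p of 0.0856 to 0.387), and miR-130b-5p (0.03 to 0.49) and miR-301a-3p (0.04 to 0.50) stayed above 0, the latter at 0.04 with both arms of the precursor summed. The -0.13 of miR-130a-3p came from limma on log2(TPM + 10), in which 10 is added to deposited values of 3 to 5. miR-130a-5p had 0 with limma on log2(TPM + 1) and on log2(TPM + 10), in which its deposited values are 0 or 1, and -1.08 to 0.21 with 1 library left out. miR-301a-5p had -0.32 to 0.10 with 1 library left out. With at least 10 counts required in 4 libraries, miR-130a-3p, miR-130a-5p and miR-301a-3p gave no value.

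Of all miRNAs, 34 passed the thresholds of the study, some of them predicted miRNAs. This became 19 with miRBase miRNAs only (80 predicted miRNAs left out), 12 with limma on log2(TPM + 10), and 18 to 44 with 1 library left out. The number was lowest without control 3, and 21 without control 1. At an adjusted p under 0.05 there was 1, and 2 with the stricter filter, 2 with empty cells at 1 tag, 2 with DESeq2, 3 with limma on log2(TPM + 1), 2 with limma on log2(TPM + 10) and 0 with miRBase miRNAs only (edgeR, where 26 had an unadjusted p under 0.05). The 1 among the 467 miRNAs tested was a predicted miRNA named for chromosome 18 (edgeR's adjusted p = 0.00463), which is left out with miRBase miRNAs only. The cause of the other shifts beyond the number tested was not tested.

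The labels do not say that a shared replicate number marks a shared animal, day or batch, and the numbers were not used as pairs because deviations of same-numbered libraries from their group means correlated at 0.20, -0.08, -0.06 and 0.50, which is not above 0.1 in every pair. Of 8 libraries, 4 correlated best with their own number. With the replicate block 31 miRNAs passed the thresholds, and miR-130a-3p, miR-130a-5p, miR-130b-5p, miR-301a-3p and miR-301a-5p had log2 fold changes of -0.47, -0.44, 0.32, 0.21 and -0.16.

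The log2 ratio of miR-130a-3p to miR-301a-3p differed by -0.97 to -0.41 between groups with 1 library left out, and the summed level of the 5 arms by -3.71 to 4.23 CPM, above 0 only without control 1 or CPB/DHCA 2. The 4 members listed in all 8 libraries had 3 to 17 tags in each, and miR-130a-5p 0 to 4 with an empty cell read as 0. The 95% interval of each member's fold change spans at least a 2-fold range.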
